A study of Homo sapiens with 66 samples.

Results

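Cytosolic RNA was compared with total RNA in the control cells of study 2 of the series. The libraries were chosen by their labels alone, as the study 2 libraries in which both gRNAs were nontarget controls: 2 libraries of total RNA and 2 of cytosolic RNA, 4 of the 18 libraries of study 2 and of the 66 in the series. The cells were THP-1, a human monocytic leukemia line, from a wild-type clone that carried a Cas9 transgene, and they were kept in medium and harvested on day 4 after nucleofection of the nontarget gRNA NC1 in both gRNA positions. Total RNA came from whole cells. Cytosolic RNA came from the material released by digitonin at 300 µg/ml, a detergent that opens the plasma membrane and leaves inner membranes largely closed. All 4 libraries were made from DNase-treated RNA with ribosomal RNA removed, so they hold spliced and unspliced transcripts with and without a poly(A) tail. This 1 clone stood for the line, and the labels gave 2 replicates per fraction, described in the study's methods as separate experiments. No nuclear library of these cells was analysed here. The nearest one was the digitonin-insoluble RNA of cells given a gRNA against hnRNPC (hnRNPC_CTRL, 2 libraries), and the other groups of study 2 were targeted for hnRNPC, for ADAR (CTRL_ADAR) or for both (hnRNPC_ADAR).

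A messenger RNA that codes for a secreted or membrane protein is carried to the endoplasmic reticulum during translation, when the signal recognition particle binds a hydrophobic stretch of the growing protein. Messages for cytosolic and nuclear proteins are translated on free ribosomes, mitochondrial genes are transcribed inside the organelle, and many noncoding RNAs and most introns stay in the nucleus. ADAR converts adenosines to inosines, read as guanosines, in double-stranded RNA, which in human cells forms mainly where inverted Alu repeats pair. The study clustered such edited sites into regions rich in editing clusters (ECRs), extended each by 1000 bp on both sides, and asked which of them reach the cytosol, where sensors of double-stranded RNA sit.

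The 4 libraries held 53396969 to 70594601 reads on genes, and 5.65% to 5.93% as many reads on ECRs. Mitochondrially encoded genes took 0.370% and 0.745% of the gene reads of total replicates 1 and 2, and 0.00621% and 0.00749% of those of cytosolic replicates 1 and 2. The replicates were not copies of each other, and the total pair lay further apart than the cytosolic pair (chi-square per gene 88.8 over 21464 genes against 19.7 over 19601 genes). Of the monocyte markers, 12 of 15 passed the filter on low counts, and their summed level was 1050.2 to 1249 CPM in total RNA and 527 to 596 CPM in cytosolic RNA. CD14 (0.114 to 1.02 CPM), CD68 and CEBPA did not pass the filter. Markers of B cells summed to 17.7 to 19.9 CPM over the 4 libraries, and those of T cells, red cells, epithelium and stroma to at most 7.63 CPM, with VPREB1, HBD, KRT5, CLDN4 and COL3A1 at 0 in all 4. CPM is the read count of a gene scaled to a library of fixed size, here after the trimmed mean of M values (TMM), and a log2 difference is the fitted cytosolic over total value with its standard error (SE). A level is thus a share of the RNA of its fraction, and less RNA per cell or fewer cells cannot be told apart from it.

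Of 57820 genes in the table, 13650 passed the filter on low counts. By the quasi-likelihood test of edgeR, with p-values adjusted after Benjamini and Hochberg, 1415 genes (10.4% of those tested) were lower and 71 (0.52%) higher in cytosolic RNA by at least 1 on the log2 scale at an adjusted p of at most 0.05. At any size, 2711 were lower and 4298 higher. The median log2 difference over all genes was 0.19 and the values ran from −7.405 to 2.19. The median was 0.17 with size factors by relative log expression, 0.20 with limma-voom and 0.03 with no factor on the gene totals. Printed differences are not corrected for this median, which is the background for each of them. Both cytosolic values lay below both total values for 3490 genes (25.6%) and above them for 6353 (46.5%). With 2 libraries a side, an exact permutation test of 1 gene cannot give a two-sided p below 0.333, and the adjusted p-values rest on the spread pooled over the 18 libraries. The count of higher genes rested on single libraries: it was 162 without total replicate 1, 370 without total replicate 2 and 135 without cytosolic replicate 2.

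Messages were grouped by the position of the first hydrophobic stretch of the protein. A stretch was a window of 19 residues with a mean Kyte-Doolittle hydropathy of at least 1.6, and it was called early where it started in the first 30 residues, the place of a signal peptide or signal anchor. Of 1303 tested nuclear genes with an early stretch, 555 (42.6%) were lower in cytosolic RNA, 0 were higher, and their median log2 difference was −0.83. Of 2331 genes with a stretch that came later, as in most proteins with several membrane spans, 403 (17.3%) were lower, 5 were higher, and the median was −0.09. Of 7692 genes with no such stretch, 228 (2.96%) were lower, 42 were higher, and the median was 0.30. Leaving out any 1 of the 4 libraries kept the early count between 519 and 586, the later count between 374 and 438 and the count without a stretch between 202 and 259. Among the 1201 lower protein-coding genes with a nuclear locus, 46.2% had an early stretch, against 11.4% of all tested. The stretch is a property of the sequence and not an annotation of signal peptides: P4HB, GRN, PPT1 and AZU1 are exported proteins that it left in the class without one.

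**Figure D1:**
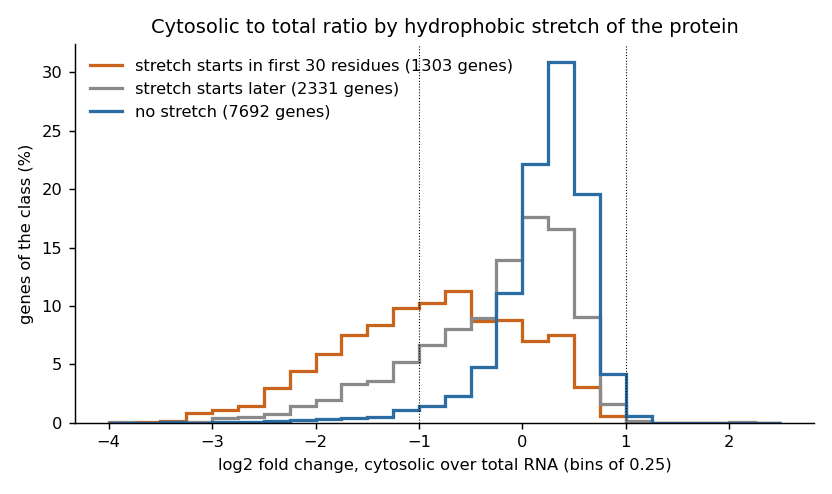
Share of genes (% of each class) by log2 difference of cytosolic over total RNA in bins of 0.25, for protein-coding genes whose protein has an early hydrophobic stretch (1303 genes), a later one (2331) or none (7692). The early class has its median at −0.83 and a long arm to the left, the later class lies at −0.09 and the class without a stretch at 0.30.

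The first 30 codons show what the classes were built on. They are given for messages whose levels are described next, 3 exported proteins (B2M, PDIA3, ITGB2) and 3 cytosolic ones (ACTB, GAPDH, RPLP0). Capitals mark codons for residues of positive hydropathy (alanine, cysteine, phenylalanine, isoleucine, leucine, methionine, valine). The letters were read 5′ to 3′ on the coding strand of GRCh37 with introns left out, from chr15:45003745-45007643 (plus strand) for B2M, chr15:44038738-44038827 (plus) for PDIA3, chr21:46330256-46330697 (minus) for ITGB2, chr7:5569199-5569288 (minus) for ACTB, chr12:6643999-6645720 (plus) for GAPDH and chr12:120637253-120638586 (minus) for RPLP0.
B2M: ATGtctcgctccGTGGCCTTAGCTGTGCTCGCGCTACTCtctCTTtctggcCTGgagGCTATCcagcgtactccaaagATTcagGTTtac
PDIA3: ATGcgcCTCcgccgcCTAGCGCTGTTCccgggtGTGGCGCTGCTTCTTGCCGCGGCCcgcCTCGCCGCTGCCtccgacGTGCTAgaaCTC
ITGB2: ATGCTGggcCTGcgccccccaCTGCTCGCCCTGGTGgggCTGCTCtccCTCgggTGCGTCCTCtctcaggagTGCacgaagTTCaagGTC
ACTB: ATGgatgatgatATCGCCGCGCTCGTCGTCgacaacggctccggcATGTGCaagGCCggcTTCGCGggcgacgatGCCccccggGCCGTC
GAPDH: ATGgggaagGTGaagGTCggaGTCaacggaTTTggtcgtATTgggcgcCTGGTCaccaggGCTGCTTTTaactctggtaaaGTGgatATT
RPLP0: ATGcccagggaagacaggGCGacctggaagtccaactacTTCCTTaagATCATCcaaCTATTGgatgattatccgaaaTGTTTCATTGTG

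B2M had 16 such codons with a longest run of 9, PDIA3 had 21 with a run of 8, and ITGB2 had 17 with a run of 5. ACTB had 15 with a run of 6, GAPDH 13 with a run of 3 and RPLP0 12 with a run of 4. The count parted these examples, but narrowly, at 16 in B2M against 15 in ACTB. The run did not part them, since ACTB had a longer run than ITGB2. Over 11326 genes the mean was 11.6 ± 3.56 (SD), over the 1186 lower genes with a translation 14.2 ± 3.84, and over the 47 higher ones 9.60 ± 2.70. Within the class without a 19-residue stretch the 228 lower genes still had a mean of 12.7 against 10.8 in the other 7464.

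Messages for the folding enzymes of the endoplasmic reticulum were lower in cytosolic RNA for 17 of 25 genes, with a list median of −1.45. The share over all tested genes, 10.4%, and their median of 0.19 are the background for this and each later list. PDIA3, a disulfide isomerase that helps load class I molecules, stood at 529 and 455 CPM in total RNA and at 49.4 and 59.7 CPM in cytosolic RNA. Its log2 difference was −3.17 ± 0.15 (SE, edgeR adjusted p = 1.65e-10), a 9.02-fold lower level with no overlap of the fractions. HSP90B1, the HSP90 of the reticulum, fell by 2.63, CALR, a lectin chaperone, by 2.41 and P4HB, the main disulfide isomerase, by 2.15. HSPA5, the HSP70 of the reticulum, fell by 2.78, but its total values of 188 and 446 CPM lay far apart. ERO1A, an oxidase of the same folding system, was the exception at the other end: it had 49.8 and 61.7 CPM in total and 65.3 and 63.9 CPM in cytosolic RNA (0.21 ± 0.11, edgeR adjusted p = 0.108). Its paralog ERO1B had 20.7 and 18.3 CPM in total and 11.6 and 11.9 CPM in cytosolic RNA, a difference of −0.73 below the size limit.

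The machinery that brings proteins into the reticulum had values on both sides of 0. Of 28 genes for the translocon, signal peptidase and oligosaccharyltransferase, 12 were lower and 0 higher, with a median of −0.67. RPN2, a large transferase subunit, had 588 and 470.3 CPM in total and 86.4 and 87.4 CPM in cytosolic RNA (−2.61 ± 0.16, edgeR adjusted p = 2.20e-09). SEC61B, a small translocon subunit anchored by its tail, had 56.1 and 41.6 CPM against 79.0 and 64.8 CPM (0.56 ± 0.14), and OST4, a very small transferase subunit, 40.5 and 26.9 CPM against 56.8 and 48.2 CPM (0.64 ± 0.17). Both lay above total RNA in each cytosolic library, at adjusted p-values of 0.00453 and 0.00486 but under the size limit. Of the 8 genes of the signal recognition particle and its receptor, the receptor subunits were the 2 that fell: SRPRA, which docks the particle, had 181 and 208 CPM against 60.04 and 61.1 CPM (−1.68), and SRPRB, its membrane anchor, 73.9 and 54.4 CPM against 15.9 and 13.7 CPM (−2.12). The soluble subunit SRP9 stood at 382 and 282 CPM in total and 552 and 484 CPM in cytosolic RNA (0.64 ± 0.14).

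Of 30 tested lysosomal genes 28 were lower, with a median of −1.92. GRN, the precursor of the granulins, had 269 and 239 CPM in total and 24.2 and 26.2 CPM in cytosolic RNA (−3.33 ± 0.12, edgeR adjusted p = 2.59e-11, 10.1-fold lower). GAA, the lysosomal glucosidase, fell by 3.10, and CTSG, a protease of azurophil granules, by 2.52. PPT1, a thioesterase and one of the most abundant messages here, fell less, from 3792 and 3321 CPM to 1543 and 1437 CPM (−1.25 ± 0.14). The 2 genes not called, CTSZ (−0.76), a cathepsin, and SCARB2 (−0.70), a membrane receptor that sorts glucocerebrosidase, also had both cytosolic values below both total values.

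All 7 tested genes of antigen presentation were lower, with a median of −2.16. B2M, the light chain of class I molecules, at chr15:45003556-45011049, is often used as a reference transcript, and it had 1120.1 and 786 CPM in total and 235 and 212 CPM in cytosolic RNA (−2.09 ± 0.18, edgeR adjusted p = 9.26e-08). TAPBP, which tethers class I molecules to the peptide transporter, fell by 2.91, HLA-DRB1, a class II chain, by 2.18, CD74, the invariant chain, by 2.11 and HLA-E, a nonclassical class I chain, by 1.70. The class I heavy chains are near-identical in sequence and 11 of the 18 genes of this list did not pass the filter, so the set is incomplete, and reads on HLA-DRB1 and HLA-E may be shared with close paralogs.

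Of 40 tested receptors and integrins of monocytes 27 were lower, with a median of −1.21. ITGB2, the integrin chain common to the leukocyte adhesion receptors, had 435 and 341 CPM in total and 54.5 and 54.6 CPM in cytosolic RNA (−2.83 ± 0.14, edgeR adjusted p = 2.79e-10). IL6R, the interleukin 6 receptor, fell by 1.497 and TFRC, the transferrin receptor, by 1.12 (0.95 without total replicate 1, below the size limit). Of the 4 chains of interferon receptors in the list, IFNGR1 fell by 1.895 and IFNAR2 was at −0.30 (0.08 without total replicate 2), both looked up after the other values were seen. The other 2 lay above total RNA: IFNAR1 had 46.5 and 61.7 CPM against 78.9 and 69.8 CPM (0.46 ± 0.14), and IFNGR2 37.5 and 30.2 CPM against 43.3 and 45.8 CPM (0.40 ± 0.12), both under the size limit although both proteins have an early stretch.

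Of 25 tested genes for secreted and granule proteins of myeloid cells, 11 were lower and 0 higher, with a median of −0.69. SRGN, the proteoglycan core of granules, had 2836 and 2034 CPM in total and 695 and 652 CPM in cytosolic RNA (−1.85 ± 0.15), LYZ, lysozyme, fell by 2.20 and AZU1, azurocidin, by 2.65. LGALS1 and S100A8, which leave cells without a signal peptide, had 788 and 545 CPM against 1000.5 and 802 CPM (0.44 ± 0.15) and 8.38 and 7.16 CPM against 11.4 and 10.3 CPM (0.48 ± 0.19). The sterol pathway held both kinds of enzyme. Of 19 genes whose products sit in the membrane of the reticulum, or are the LDL receptor, 12 were lower (median −1.20), among them SQLE, squalene epoxidase (378 and 285 CPM against 133 and 143 CPM, −1.27 ± 0.14), and SREBF1, the membrane-bound regulator of lipid synthesis (−2.11). Of 10 genes for cytosolic enzymes 0 were lower and 0 higher by this rule (median 0.22), ACLY, which makes cytosolic acetyl-CoA, standing at 587 and 482 CPM against 651 and 561 CPM.

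All 17 tested transcripts of the mitochondrial genome fell, with log2 differences from −7.405 to −4.04 and a median of −5.93. MT-CO1, a catalytic subunit of cytochrome oxidase, had 1931 and 2764 CPM in total and 21.5 and 27.7 CPM in cytosolic RNA (−6.58 ± 0.34, edgeR adjusted p = 4.50e-10, 95.6-fold lower). MT-ND3, a complex I subunit, had 139.9 and 92.5 CPM against 0.601 and 0.772 CPM (−7.405 ± 0.32), and MT-ND1, of the same complex, 37.0 and 156 CPM against 1.98 and 1.76 CPM (−5.68 ± 0.58). The 2 total libraries thus differed by more than 4-fold in MT-ND1 while the cytosolic ones were close. In the digitonin-insoluble RNA of hnRNPC_CTRL cells MT-ND3 stood at 192 and 122 CPM, against 0.767 and 0.944 CPM in their cytosolic RNA. Pseudogenes of mitochondrial origin share reads with these genes and their values are uncertain.

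Messages for mitochondrial proteins encoded in the nucleus had medians above 0, beside a median of 0.19 over all tested genes. Of 80 nuclear genes for subunits of oxidative phosphorylation 2 were lower (median 0.34), of 74 for the mitochondrial ribosome 1 (median 0.36), of 28 for matrix enzymes and chaperones 0 (median 0.26) and of 16 for mitochondrial tRNA synthetases 1 (median 0.02). Without total replicate 2 the last count was 3 and that of the mitochondrial ribosome 2, and without total replicate 1 oxidative phosphorylation had 4 higher genes in place of 0 and the mitochondrial ribosome 1. Over all genes tested the share was 10.4%. The 2 were NDUFV2, a complex I subunit, at 3.59 and 3.45 CPM against 1.27 and 1.19 CPM (−1.52), and NDUFA13, of the same complex, at 1.69 and 2.29 CPM against 0.601 and 0.683 CPM (−1.63). LARS2, the mitochondrial leucine tRNA synthetase, had 63.6 and 53.2 CPM against 23.0 and 28.8 CPM (−1.17).

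Nuclear RNAs had medians below 0 as groups, with exceptions among their members. Of 10 tested long noncoding RNAs known to stay in the nucleus, 3 fell and 1 rose, with a median of −0.43, against 10.4% and 0.52% of all tested genes. The 3 became 1 without total replicate 2 and 2 without cytosolic replicate 1. MALAT1, a speckle RNA at chr11:65265111-65275544, had 1148 and 2723 CPM in total and 731 and 875 CPM in cytosolic RNA (−1.27 ± 0.29, edgeR adjusted p = 0.00195), and NEAT1, the core of paraspeckles, 169.6 and 337 CPM against 94.0 and 149 CPM (−1.06 ± 0.27). Replicate 2 of total RNA was the higher of the pair in both, and without it MALAT1 was at −0.51 and NEAT1 at −0.48, neither past the threshold, and without cytosolic replicate 1 NEAT1 was at −0.77 and also not past it. KCNQ1OT1, an imprinted antisense RNA, had 31.9 and 55.3 CPM against 9.498 and 16.5 CPM (−1.75 ± 0.24). FIRRE, an X-linked repeat RNA of the nucleus, was the one that rose, at 2.09 and 1.42 CPM against 3.98 and 3.11 CPM (1.01 ± 0.26), but it was at 0.77 without total replicate 2 and 0.82 without cytosolic replicate 1, and under the size limit with size factors by relative log expression (0.993), DESeq2 (0.994) and no factor (0.86). In hnRNPC_CTRL cells MALAT1 stood at 2265 and 2024 CPM in digitonin-insoluble RNA and at 940.0 and 696 CPM in cytosolic RNA.

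Primary transcripts of microRNAs fell in 3 of 5 tested. MIR17HG, the host of the miR-17 to miR-92a cluster, had 41.5 and 37.4 CPM in total and 1.98 and 4.04 CPM in cytosolic RNA (−3.72 ± 0.33, edgeR adjusted p = 1.28e-07, 13.2-fold lower). MIR155HG had 7.80 and 8.17 CPM against 2.61 and 2.95 CPM (−1.52 ± 0.21), and MIR4435-2HG had 18.96 and 16.9 CPM against 24.2 and 24.0 CPM (0.42 ± 0.13), above total RNA in both libraries. Of 26 tested small nucleolar and Cajal body RNAs 15 fell (median −1.25) and 0 rose. Most could not be tested: of 785 matched genes for small nucleolar RNAs 20 passed the filter on low counts. SNORA73B, a box H/ACA RNA, had 352 and 287 CPM against 14.2 and 14.8 CPM (−4.47 ± 0.31). Its host SNHG3, in whose span it lies at chr1:28835071-28835274, had 376 and 372 CPM against 62.2 and 64.4 CPM (−2.56), and reads of the one cannot be told apart from those of the other by these counts. SCARNA7, a Cajal body RNA, fell by 3.34.

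RN7SK, which holds the elongation factor P-TEFb in an inactive state in the nucleus, had 25519.8 and 16432 CPM in total and 27132 and 23399 CPM in cytosolic RNA (0.27 ± 0.21, edgeR adjusted p = 0.291, and −0.01 without total replicate 2), with the cytosolic value of 1 replicate between the total values. RN7SL2, the RNA of the signal recognition particle, had 12139 and 8027 CPM against 6318 and 5921 CPM (−0.72 ± 0.25), below total RNA in both libraries and under the size limit. BCYRN1, a small RNA related to the Alu left arm, had 4.31 and 3.21 CPM against 10.4 and 7.62 CPM (1.26 ± 0.19, edgeR adjusted p = 5.31e-05). These genes have many near-identical copies in the genome, so counts of unique reads on them are uncertain. The spliced noncoding RNA OIP5-AS1, known as cyrano, had 317 and 298 CPM against 612 and 548 CPM (0.92 ± 0.15).

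**Figure D2:**
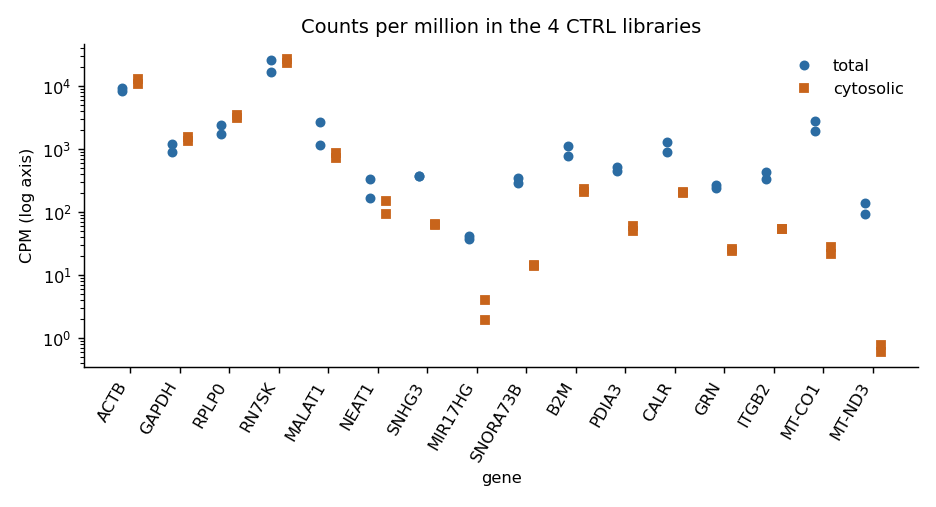
CPM (log axis) of 16 named genes in the 2 total (circles) and 2 cytosolic (squares) libraries of the control cells. ACTB, GAPDH and RPLP0 lie higher in cytosolic RNA, while B2M, PDIA3, CALR, GRN and ITGB2, the small RNA SNORA73B and the mitochondrial MT-CO1 and MT-ND3 lie below total RNA without overlap.

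Lists of messages translated on free ribosomes had medians from 0.12 to 0.47, beside 0.19 over all tested genes. None of the 81 ribosomal protein genes was called in either direction by edgeR, and their median was 0.47. Both cytosolic values lay above both total values for 64 of the 81, against 46.5% of all tested genes. Without total replicate 1, 3 of them were called higher, and limma-voom called 1. RPLP0, of the ribosomal stalk, had 2437 and 1732 CPM against 3483 and 3126 CPM (0.66 ± 0.16). ACTB, cytoplasmic actin, had 9253 and 8220.4 CPM against 12773 and 10666 CPM (0.42 ± 0.13, edgeR adjusted p = 0.0130), and GAPDH, of glycolysis, 1189 and 915 CPM against 1559.7 and 1322 CPM (0.45 ± 0.13). Translation factors (33 genes, median 0.38), proteasome subunits (36, 0.27), histones (36, 0.39), replication genes (35, 0.23), glycolytic enzymes (16, 0.21) and cytosolic tRNA synthetases (20, 0.12) had 0 genes called lower and 0 higher, and at most 1 in either direction with any 1 library left out.

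Regulators named for intron retention were near level. Of 33 genes for splicing kinases, SR proteins and cyclins L, 2 were lower (1 without total replicate 1, 3 without total replicate 2) and the median was −0.13: CCNL1 had 117 and 89.4 CPM against 44.4 and 46.4 CPM (−1.19 ± 0.15, but −0.98 without total replicate 1), and its paralog CCNL2, which also partners splicing kinases, 93.4 and 82.0 CPM against 39.1 and 38.2 CPM (−1.18 ± 0.14). Zinc-finger genes gave 4 lower and 1 higher of 452 (median 0.15), 7 lower with no scaling factor, and 7, 4, 3 and 0 higher without total replicate 2, total replicate 1, cytosolic replicate 2 and cytosolic replicate 1. Of 21 RNA sensors and effectors 1 was lower (median 0.15), a share under the 10.4% of all genes. It was the endosomal receptor TLR7, at 0.737 and 1.30 CPM against 0.357 and 0.521 CPM (−1.21 ± 0.38). Its difference was −0.75 without total replicate 2 and −0.96 without cytosolic replicate 1, both under the size limit. EIF2AK2, the kinase PKR, had 137 and 166 CPM against 261 and 255 CPM (0.77 ± 0.22), and ADAR 858 and 869 CPM against 1166 and 1162 CPM (0.43 ± 0.16). Of 12 genes of interferon signalling, IRF9, a subunit of the factor ISGF3, was lower (3.86 and 3.23 CPM against 1.53 and 1.599 CPM, −1.18). SPI1, the myeloid factor PU.1, stood at 82.9 and 113 CPM against 138 and 129.7 CPM, and 0 of 16 myeloid transcription factors were called (1 higher without total replicate 2).

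Of the 71 higher genes 47 were protein-coding, with a median transcript length of 5727 bases, against 3437 for all tested and 3239 for the lower genes, a difference that was not tested. CNOT6, a deadenylase of the CCR4-NOT complex, had 77.1 and 138 CPM in total and 263 and 216 CPM in cytosolic RNA (1.16 ± 0.23, edgeR adjusted p = 6.03e-04), LPP, an adhesion protein, 106 and 158 CPM against 316 and 282 CPM (1.18 ± 0.18), and PLEKHA3, a lipid-binding protein of the Golgi, 33.6 and 48.0 CPM against 102 and 84.1 CPM (1.19 ± 0.20). PTP4A1, a prenylated phosphatase, had 79.9 and 263 CPM against 429 and 350.3 CPM (1.18 ± 0.37). In these 4 genes total replicate 1 was below total replicate 2, and without it their differences were 0.80, 0.92, 0.96 and 0.57 in this order, under the size limit. PTP4A1 also lost its call without cytosolic replicate 1, at 1.03, and with no scaling factor CNOT6, LPP and PTP4A1 were at 0.962, 0.996 and 0.963, under the limit. The 12 highest genes of at least 5 CPM, these 4 among them, were also lower in digitonin-insoluble than in cytosolic RNA of hnRNPC_CTRL cells, CNOT6 at 57.6 and 90.2 CPM against 228 and 172 CPM. Over all 13650 tested genes that log2 difference had a median of −0.27, with 2116 called lower and 2046 higher in digitonin-insoluble RNA.

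ECRs differed in level by the part of the gene in which their sites lie. Of 2794 regions 2470 passed the filter, 387 (15.7%) were lower and 9 (0.364%) higher in cytosolic RNA, and the median log2 difference was −0.02. The 9 became 47 without total replicate 2, 4 without cytosolic replicate 1 and 18 without cytosolic replicate 2. Each region was placed by the most frequent class of its sites, so some are mixed, as the CTSA region with 61.0% of its sites in 3′ UTRs. Of 547 ECRs placed in 3′ UTRs, 32 were lower and 6 higher, with a median of 0.30. Of 1284 in introns 261 were lower and 1 higher (median −0.21), and of 302 between genes 39 were lower and 0 higher (median 0.14). Of 1211 intronic regions with a tested host gene, 871 lay below the host's own difference, and over all 1211 the region minus its host had a median of −0.16. Of 536 regions of 3′ UTRs 134 lay below their host (median 0.07), and of all 1990 regions with a tested host 1137 did (median −0.04).

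A region of this kind is counted whole, and 829 of the 1284 intronic ones also cover an annotated exon of their host. The 455 that cover no exon were lower in 147 cases (32.3%), with a median of −0.62, and a median of −0.78 relative to the host over the 420 with a tested host. The 829 that cover an exon were lower in 114 (13.8%), with a median of −0.01. ECRs of 3′ UTRs were also counted by the protein class of the host: 23 of 62 (37.1%) were lower where the host had an early hydrophobic stretch, 4 of 106 where it had a later one and 5 of 376 (1.33%) where it had none, with medians of −0.57, 0.07 and 0.37. Of 146 ECRs in genes that were themselves lower, 99 (67.8%) were lower, against 217 of 1843 in tested genes that were not called. Reads on exon bases of a region, 3′ UTRs among them, can also count toward the host gene. Region and host, and the split by host class, are thus not independent of the gene counts.

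**Figure D3:**
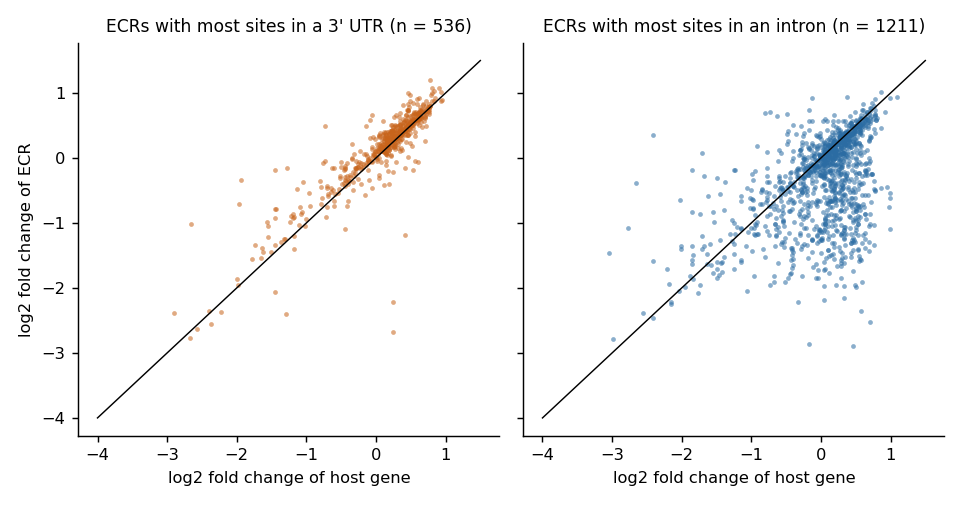
Log2 difference of cytosolic over total RNA of each ECR (vertical) against that of its host gene (horizontal), for 536 ECRs in 3′ UTRs and 1211 in introns with a tested host. The line marks equal values, and 134 of the regions of 3′ UTRs and 871 of the intronic ones lie below it.

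Among the regions that fell, HELLS, a chromatin remodeller, had a region far below its gene. The region at chr10:96324762-96328585 covers no exon and had 3.36 and 5.72 CPM in total and 0.390 and 0.844 CPM in cytosolic RNA (−2.89 ± 0.36, edgeR adjusted p = 4.10e-06), while the HELLS gene had 82.4 and 107.9 CPM against 139.3 and 122.7 CPM (0.46). An intron of SEC63, a translocon cofactor, at chr6:108207340-108209410 had 3.53 and 5.03 CPM against 0.341 and 0.844 CPM (−2.86 ± 0.36), beside −0.17 for its gene, which was at 0.54 without total replicate 2. By contrast MRC2, a collagen receptor, fell alike in its ECR (24.9 and 25.3 CPM against 3.39 and 3.93 CPM, −2.78) and as a gene (−2.99), as did SCPEP1, a carboxypeptidase (17.2 and 11.4 CPM against 2.21 and 1.65 CPM, −2.89, gene −2.44), and CTSA, a lysosomal carboxypeptidase (24.0 and 22.4 CPM against 3.64 and 3.81 CPM, −2.64, gene −2.58). Their regions hold exon bases, so region and gene can share reads.

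The region at chr16:29675400-29677651 shows a limit of assigning a host. Its sites lie in 3′ UTRs of QPRT and it had 290.1 and 249 CPM in total and 35.7 and 49.0 CPM in cytosolic RNA (−2.67 ± 0.17), while QPRT, a cytosolic enzyme of NAD synthesis, was at 0.25. The same bases are exon of SPN, the surface sialoprotein CD43, which was looked up after these values were seen and had 602 and 537 CPM in total and 91.2 and 125.9 CPM in cytosolic RNA (−2.39).

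Of the 9 regions that rose, 6 lie in 3′ UTRs. ERCC8, a repair factor, had 4.203 and 4.86 CPM in total and 11.1 and 9.72 CPM in cytosolic RNA over chr5:60161744-60164968 (1.20 ± 0.22, edgeR adjusted p = 2.19e-04), with 0.78 for the gene. The region of OIP5-AS1 at chr15:41596484-41598577 had 71.8 and 71.5 CPM against 154 and 138 CPM (1.02 ± 0.17), and that of SUGT1, a cochaperone, 7.21 and 10.7 CPM against 20.4 and 17.3 CPM (1.07 ± 0.20). For PHACTR4, a phosphatase regulator, 7.06 and 17.6 CPM stood against 26.3 and 23.9 CPM (1.03 ± 0.26), with total replicate 1 the lowest. Without that library PHACTR4 was at 0.51 and SUGT1 at 0.81, and without cytosolic replicate 1 PHACTR4, SUGT1 and OIP5-AS1 were at 0.96, 0.95 and 0.94, all under the size limit. With no scaling factor they were at 0.82, 0.89 and 0.86, and with size factors by relative log expression PHACTR4 and OIP5-AS1 were at 0.986 and 0.998, as with DESeq2 (0.981 and 0.998).

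No ECR of the genes taken from the study was called in the control cells. In the study BPNT1, DESI1 and NICN1 served for comparison, as ligands of the double-stranded RNA sensor MDA5 described before. The others carried ECRs that it examined itself. BPNT1, a phosphatase, had 17.5 and 15.6 CPM in total and 21.5 and 18.99 CPM in cytosolic RNA (0.29 ± 0.12), and DESI1, a deSUMOylase, 42.8 and 43.1 CPM against 63.5 and 62.1 CPM (0.55 ± 0.14, edgeR adjusted p = 0.00392). A region overlapping PSPH, of serine synthesis, at chr7:56077288-56080110 had 11.5 and 9.19 CPM against 18.9 and 16.3 CPM (0.77 ± 0.15, edgeR adjusted p = 6.07e-04). These 3 lay above total RNA in both cytosolic libraries and under the size limit. Of the sites of that PSPH region 70% lie between genes. The other tested PSPH region, at chr7:56107147-56110853, has all its sites in introns. It had 1.87 and 2.48 CPM in total and 2.32 and 2.32 CPM in cytosolic RNA (0.10 ± 0.24, edgeR adjusted p = 0.751), with overlapping fractions. The intronic region of BRD8, a bromodomain protein, had 1.38 and 2.72 CPM against 0.909 and 2.12 CPM (−0.44 ± 0.33, edgeR adjusted p = 0.281), with overlapping fractions. MIGA1, NICN1 and TMEM116 are the others of these genes.

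Editing was measured as the share of reads with G at an edited A, over 43097 sites with at least 10 reads in each of the 4 libraries, of which 35498 lie in ECRs. Over the ECR sites the share was 16.8% (95% Wilson interval 16.7 to 16.8) and 15.5% (15.5 to 15.6) in total RNA and 17.8% (17.7 to 17.8) and 17.9% (17.8 to 17.9) in cytosolic RNA. The means were 16.1% ± 0.890 and 17.8% ± 0.0732 (SD, n = 2), a gap of 1.68 percentage points without overlap (1.05 points without total replicate 2). The exact two-sided permutation p was 0.333, the smallest that 2 against 2 allows, and the intervals cover counting error only. A read counts at each site that it covers, so intervals of pooled shares are too narrow even for that. Among introns, 3′ UTRs and intergenic stretches the gap was widest in introns, at 15.6% and 13.7% against 18.5% and 18.4% over 13386 sites (3.77 points). It was 0.8002 points in 3′ UTRs (17.6% and 16.6% against 17.8% and 17.97%, 14685 sites) and 1.82 points between genes (5206 sites). Intronic sites of ECRs that were lower in cytosolic RNA had 14.4% and 12.5% in total and 21.01% and 19.6% in cytosolic RNA. The same order was seen in hnRNPC_CTRL cells, whose intronic sites had 15.5% and 15.7% in total, 18.4% and 18.4% in cytosolic and 13.01% and 14.9% in digitonin-insoluble RNA.

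**Figure D4:**
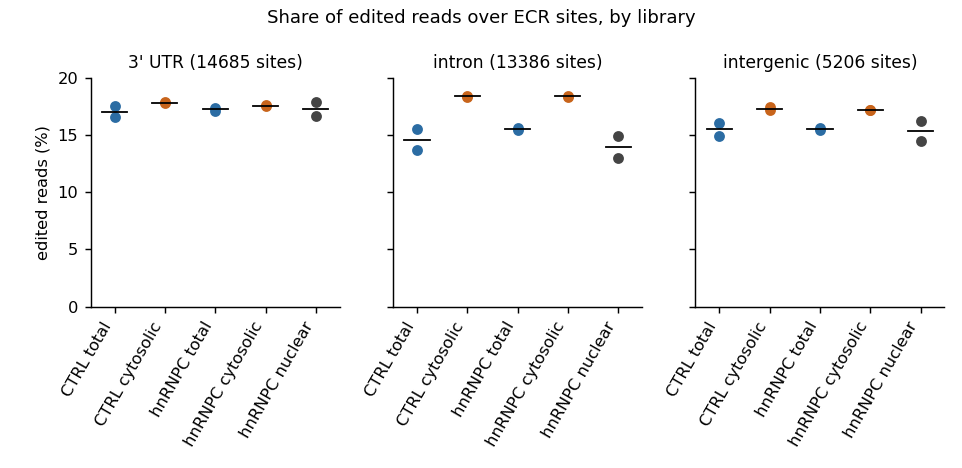
Share of edited reads (%) over sites of 3′ UTRs (14685), introns (13386) and intergenic stretches (5206), 1 point per library with the mean as a line, for control cells (total, cytosolic) and hnRNPC_CTRL cells (total, cytosolic, digitonin-insoluble, marked nuclear). Cytosolic points lie above total points in each class, by 3.77 percentage points in introns of control cells and 0.8002 in 3′ UTRs.

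By region, 84 of 1217 ECRs with enough reads (6.9%) were more edited in cytosolic RNA by at least 5 points at an adjusted p of at most 0.05, and 0 (0.0%) were less edited. edgeR gave 246 and 10 regions at an unadjusted p under 0.05, and limma on log ratios gave 4 more and 0 less edited. The 84 became 4 without cytosolic replicate 1, 16 without total replicate 2 and 34 without cytosolic replicate 2. Of the 84, 66 were intronic (of 493 tested, median difference 4.55 points), 6 were in 3′ UTRs (of 453, 0.864 points) and 7 between genes (of 178). Among the 474 intronic regions that also passed the level filter 63 were more edited, 24 of 147 that cover no exon and 39 of 327 that cover one, with medians of 4.60 and 4.51 points.

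The largest difference was in MFSD2A, a lysophospholipid transporter of the plasma membrane. Its intronic region at chr1:40424409-40426557 had 16.1% (95% Wilson interval 14.4 to 18.03) and 18.9% (17.1 to 20.9) of reads edited in total and 47.0% (42.1 to 51.9) and 40.5% (36.2 to 45.02) in cytosolic RNA (edgeR adjusted p = 1.47e-05). Reads of a region were summed over its sites, here 14, so a read that covers several sites counts at each. The next region, at chr1:40426579-40428712, had 13.03% and 14.6% against 33.1% and 30.8% (edgeR adjusted p = 1.10e-05). The level of both regions fell, the first from 127 and 119.8 CPM to 31.7 and 48.1 CPM (−1.63) and the second by 1.36, as did the gene, which was looked up after the regions were seen, by 1.85. In hnRNPC_CTRL cells the first region was edited at 16.6% and 22.8% in total, 44.03% and 48.8% in cytosolic and 19.3% and 24.8% in digitonin-insoluble RNA. The other 6 of the 8 regions with the largest called differences lay outside MFSD2A. ATXN2L, a stress granule protein, had 18.96% and 7.90% against 38.1% and 32.9% over chr16:28838718-28841332, an intergenic region at chr4:152025872-152028784 had 13.8% and 9.32% against 34.6% and 28.7%, and SRGAP2C, which has near-identical paralogs, had 13.6% and 8.68% against 23.7% and 34.2%. EEF1A1, the elongation factor, had 15.7% and 10.9% against 33.2% and 29.0% over chr6:74222632-74225073, RPL22 13.1% and 13.5% against 29.8% and 27.4%, and EIF3L 15.5% and 5.66% against 30.6% and 29.3%. Each of the 6 kept its direction but not its call without cytosolic replicate 1, as did all but EEF1A1 without total replicate 2, and SRGAP2C without cytosolic replicate 2. The differences whose calls were lost in this way ran from 12.5 to 23.1 points, and both MFSD2A regions kept their calls with any 1 library left out. In ECRs of 3′ UTRs the shares were close: BPNT1 had 25.2% and 24.3% against 24.1% and 26.2%, with the fractions overlapping.

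By site, 18 of 43097 (0.0418%) were more edited in cytosolic RNA by at least 10 points and 1 (0.00232%) was less edited. At an unadjusted p under 0.05 edgeR gave 2272 and 452, and limma on log ratios called 0 in each direction. Without single libraries the 18 became 9 (total replicate 2), 3 (cytosolic replicate 1) and 5 (cytosolic replicate 2), and the 1 became 0 without any of the 4. Of the 18, 17 lie in introns and 13 of these in MFSD2A. These 13 are not independent, since the same reads can cover neighbouring sites. The adjacent sites 40425447 and 40425448 both had 97 and 105 reads in total RNA.

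The bases around the MFSD2A sites are shown because the calls concentrate there, and those around a deeply read 3′ UTR site for contrast. Capitals mark each called edited A and the RPL7L1 site, and other edited As that were not called stay in lower case. The windows hold 30 bases on each side of a site or pair in the intron and 14 in the UTR, 5′ to 3′ on the transcribed strand of GRCh37. The MFSD2A windows are chr1:40425417-40425478, chr1:40425460-40425520 and chr1:40427672-40427732 (plus strand). The other is chr6:42855940-42855968 (plus) in the 3′ UTR of RPL7L1, a site among those with most reads.
MFSD2A intron, sites 40425447 and 40425448: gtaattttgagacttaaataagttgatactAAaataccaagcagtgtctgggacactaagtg
MFSD2A intron, sites 40425490 and 40425500: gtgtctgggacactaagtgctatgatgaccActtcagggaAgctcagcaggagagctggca
MFSD2A intron, sites 40427687, 40427698 and 40427702: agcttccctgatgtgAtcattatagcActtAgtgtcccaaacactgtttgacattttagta
RPL7L1 3′ UTR: tggagcgcagtggcAtgatctcagctcat

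The MFSD2A windows belong to an inverted repeat. The 61 bases from 40425443 to 40425503 match the reverse complement of those from 40427672 to 40427732 at 54 positions, with 7 mismatches. Between these stretches lie 2168 bases. Only the windows shown were searched, and the match fills the whole of the last MFSD2A window. The full length of the arms and the distance between them were thus not determined. The sites 40425447, 40425448 and 40425490 lie in one arm and 40427702 in the other. The site 40425447 was edited in 20.6% and 21.9% of 97 and 105 reads in total and in 78.3% and 54.8% of 23 and 31 reads in cytosolic RNA (edgeR adjusted p = 4.40e-04). Its 95% Wilson intervals were 13.8 to 29.7% and 15.1 to 30.7% in total and 58.1 to 90.3% and 37.8 to 70.8% in cytosolic RNA. The site 40427702 on the opposite arm had 27.6% and 33.3% of 145 and 165 reads against 64.7% and 61.4% of 51 and 57 reads. Without cytosolic replicate 1 the differences at these sites were 33.6 and 30.9 points and neither passed the adjusted threshold, and 40427702 did not pass it without cytosolic replicate 2 either, at 34.2 points. Sites of both arms were thus more edited in each cytosolic library, at lower read numbers.

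The called sites in other genes had their own levels. The intronic ZFR site was edited in 10.5% and 2.70% of 57 and 37 reads in total and in 40.7% and 37.8% of 27 and 37 reads in cytosolic RNA (edgeR adjusted p = 0.0330). The RPL13A site had 14.1% and 13.4% against 39.8% and 49.0%, and the CAP1 site 30.9% and 21.8% against 62.5% and 47.2%. With any 1 library left out the ZFR difference ran from 28.8 to 36.6 points and the RPL13A difference from 26.0 to 35.2, none past the adjusted threshold, and the CAP1 call was lost without total replicate 2 (24.0 points), cytosolic replicate 1 (20.9) or cytosolic replicate 2 (36.1). The site in the 5′ UTR of NFYC, a subunit of a CCAAT-binding factor, went the other way, at 27.7% and 29.4% of 101 and 136 reads against 12% and 13.3% of 150 and 150 reads (−15.9 points, edgeR adjusted p = 0.0382), and its difference was −16.7 to −15.1 points, never past the threshold, with 1 library left out. A fit of the control libraries alone also ended the calls of the ZFR, CAP1 and NFYC sites. The RPL7L1 site, with 871 to 1666 reads a library, had 19.2% and 19.4% against 17.2% and 20.1%, and total and cytosolic values overlapped. The base before the edited A was a G in 1 of the 18 more edited sites. Over 42224 tested sites with reference sequence it was G in 6.30%, A in 31.8%, C in 32.0% and T in 29.6%, the depletion of G that is known of ADAR sites.

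The cytosolic to total difference of the control cells was also set against the mean of the same difference in the 3 targeted groups, within the same fit. For 34 genes (0.249%) the control difference was lower by at least 1, for 0 (0.0%) it was higher, and for ECRs the counts were 3 (0.121%) and 0 (0.0%). At an unadjusted p under 0.05 edgeR gave 755 lower and 181 higher genes and 98 lower and 23 higher ECRs. The count of 34 genes became 77 without total replicate 2, 10 without cytosolic replicate 1 and 22 without cytosolic replicate 2. Of the 34, 19 code for proteins with an early hydrophobic stretch, 8 with a later one and 5 with none, where the early class made up 46.2% of all lower protein-coding genes. The 34 were chosen by this contrast, so their values are a description. Their median difference was −2.35 in control cells and −2.19 in hnRNPC_CTRL cells, but −0.60 in CTRL_ADAR and −0.40 in hnRNPC_ADAR cells. PDIA3 stood at −3.17, −3.26, −1.76 and −1.295 in that order, GUSB, a lysosomal glucuronidase named here after its values were seen, at −2.41, −2.36, −0.94 and −0.58, and CD74 at −2.11, −2.02, −0.53 and 0.04. For the whole class with an early stretch (1303 genes) the medians in the same order of groups were −0.83, −0.92, −0.47 and −0.34, while the class without one was at 0.30, 0.18, 0.21 and 0.34. Which of the targeted groups carries the difference was not tested gene by gene.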

How the data were processed

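Per the labels and the study's methods, the authors aligned reads of ribosome-depleted, stranded RNA libraries to GRCh37 with STAR 2.5.4a, counted unique reads over GENCODE exons with featureCounts and over ECRs, and called A-to-G changes per site with SAILOR. The deposited counts (reads per gene, reads per ECR, and edited and total reads per site) are not normalized, and the strand setting of the counting is not given in the sources used here.

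From these counts, edgeR 4.0.16 (R 4.3.3) fitted a quasi-likelihood model with a mean for each of the 9 groups over all 18 libraries of study 2, with TMM factors. Genes with an average log2 CPM of at least 0.5 on gene totals, and ECRs of at least 4.5 on ECR totals, were tested, while ECR levels are printed as CPM of gene totals, and a call needed an absolute log2 difference of at least 1 and a Benjamini-Hochberg adjusted p of at most 0.05. Editing used edited and unedited counts in edgeR's model for such pairs, with at least 10 reads per control library and a pooled share of at least 5% per site, and a difference of at least 5 points for ECRs and 10 for sites. Every adjusted p is from edgeR unless limma 3.58.1 or DESeq2 1.42.0 is named. Hydropathy came from GENCODE translations lifted to GRCh37, and 55538 of 57820 gene identifiers matched. Intervals are 95% Wilson intervals, which for regions and pooled shares take a read as new at each site it covers. The scripts were tested on simulated data.

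The comparison and the gene lists were chosen with earlier results of these data known. Named genes were those of highest level and of largest difference in each list, the 12 highest and lowest called genes of at least 5 CPM, the 8 ECRs and sites with the largest called differences, the ECRs with most reads, and ECRs of 7 genes of the study. Some of these are not reported here. The replicates are described as separate experiments. Their numbers were not said to pair fractions, and the replicate differences of the 2 fractions correlated at r = 0.184 over genes.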

Additional observations from a re-analysis of the deposited data

Results flagged for a closer look

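The difference between cytosolic and total RNA was itself tested against the mean of the 3 targeted groups, and 34 genes and 3 ECRs stood out, all with a lower value in control cells. Among the genes named in the text, the excess was −2.08 for TAPBP, −1.28 for CD74, −1.12 for GUSB, −1.07 for PDIA3, −1.04 for HLA-E and −1.04 for AZU1 on the log2 scale. The SCPEP1 region at chr17:55074420-55076516 had −1.28. The differences of the 34 genes ran from −3.28 to −0.92 in control cells (median −2.35) and from −3.26 to 0.17 in hnRNPC_CTRL cells (median −2.19). They ran from −1.85 to 0.41 in CTRL_ADAR cells and from −1.33 to 0.49 in hnRNPC_ADAR cells.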

How the results depend on the processing

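The counts of lower genes and of lower ECRs, of the classes by hydrophobic stretch and of the lists with 10 or more lower genes stayed within 1.5 times under the alternatives, apart from 2927 lower genes with no filter beyond 1 count. Lists with fewer calls moved by more. The gap in editing share kept its direction and ran from 1.05 to 2.501 points. Higher genes numbered 13 with no scaling factor and 171 with no filter, and 48 to 370 with 1 library left out. Higher ECRs numbered 4 with size factors by relative log expression, 4 with DESeq2 and 2 with no factor, and 4 to 47 with 1 library left out. More edited ECRs numbered 4 with limma on the log ratio and 39 with at least 20 reads, and 4 to 88 with 1 library left out, and less edited ones 3 with control libraries alone, 2 with the study's site filter and 0 to 1 with 1 library left out. More edited sites numbered 0 with limma and 44 with the study's filter, and 3 to 14 with 1 library left out, and less edited ones 0 with limma, 0 with control libraries alone, 2 with the study's filter and 0 with any library left out. In the comparison with targeted groups, lower genes numbered 10 to 77 and higher ones 0 to 3 with 1 library left out, and lower ECRs 1 with limma-voom and 1 to 5 with 1 library left out. The cause of these shifts was not tested. A fit with the replicate number as a block gave 73 higher and 1415 lower genes, 81 more edited ECRs and, in the comparison with targeted groups, 1 higher and 44 lower genes. It ended the call of the ZFR site. Of 117 named genes, regions and sites, 6 that were not called turned in direction with 1 library left out. RN7SK ran from −0.0145 to 0.621, IFNAR2 from −0.598 to 0.0776, the SEC63 gene from −0.646 to 0.540, the BRD8 region from −1.17 to 0.121 with a value of 0.0544 without cytosolic replicate 1, editing of the BPNT1 region from −0.616 to 1.46 points with −0.0477 without total replicate 2, and editing of the RPL7L1 site from −2.11 to 0.777 points.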
